A study of Mus musculus with 5 samples.

Results

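The replication-dependent histone genes are the protein-coding genes of the Hist1, Hist2, Hist3 and Hist4 clusters, chosen here by symbol in GENCODE release M21 with no filter on low counts. All 67 such genes were among the 30046 features of the counts file, which also held 17087 protein-coding genes in all. They comprised 6 linker histone H1 genes, 18 H2A, 18 H2B, 12 H3 and 13 H4 genes. The Hist1 cluster on chromosome 13 held 54 of them, Hist2 on chromosome 3 held 10, Hist3 on chromosome 11 held 2, and Hist4 on chromosome 6 held 1.

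These genes supply the bulk of the histone protein that packages newly copied DNA, and their mRNAs accumulate in S phase and are destroyed when DNA synthesis ends. Their transcription is driven by NPAT under the control of cyclin E and CDK2. Most of their mRNAs carry no poly(A) tail and instead end in a conserved stem-loop, which is bound by SLBP and cut with the help of the U7 small nuclear ribonucleoprotein. Some of the genes also give rise to spliced or polyadenylated mRNAs in cells that have stopped dividing.

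The samples were bulk RNA-seq libraries of CXCL12-abundant reticular stromal cells, sorted as Cxcl12-GFPhigh tdTomato+ cells from the femurs of mice at postnatal day 21. The mice carried a Cxcl12-GFP knock-in allele, a Cre-dependent tdTomato reporter at the Rosa26 locus, and either Dlx5-creER, which marks fetal perichondrial cells (Dlx5CE-E12.5, 3 libraries), or an Fgfr3-iCreER transgene, which marks fetal chondrocytes (Fgfr3CE-E12.5, 2 libraries). All received tamoxifen through the mother at embryonic day 12.5, and each library came from pooled littermates, so that a library is the replicate and p-values measure the spread between these pools. cDNA was primed with oligo-dT, so the libraries capture tailless histone mRNA poorly. According to the methods the Dlx5CE-E12.5 libraries were read as 150-base pairs and the Fgfr3CE-E12.5 libraries as 50-base single ends, whereas the submitters' design text gives one HiSeq model for every library. Under the account in the methods, read length and lineage cannot be told apart in any value given here.

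Library totals ranged from 22035650 to 32563758 counts in Dlx5CE-E12.5 cells and from 56355203 to 58166285 counts in Fgfr3CE-E12.5 cells. The added recombinase sequences differed with the transgene. The cre sequence held 416 to 467 counts in Dlx5CE-E12.5 libraries and 1 count in each Fgfr3CE-E12.5 library, and iCre.ERT2 held 451 to 521 against 4802 and 3762 counts. The added eyfp sequence held 3428, 3143 and 2999 counts in Dlx5CE-E12.5 libraries and 0 and 6 in Fgfr3CE-E12.5 libraries. The cause of the eyfp difference was not tested. Cxcl12 itself was abundant in every library, at 22200 to 23300 CPM (read counts scaled to the size of the library with TMM factors) in Dlx5CE-E12.5 cells and 6020 to 8370 CPM in Fgfr3CE-E12.5 cells. Of 12 pan-leukocyte markers 11 (91.7%, beside 13.3% of all genes tested) were called higher in Fgfr3CE-E12.5 cells. A call stands for an adjusted p under 0.05 and a change above 2-fold in edgeR's quasi-likelihood test. The summed level of the 12 markers was 509 to 654 CPM in Dlx5CE-E12.5 libraries against 1590 and 3440 CPM in Fgfr3CE-E12.5 replicates 2 and 3. Of 9 markers of neutrophils and myeloid precursors 8 (88.9%, beside 13.3%) were called higher in Fgfr3CE-E12.5 cells, with sums of 2560 to 3190 CPM against 7080 and 17400 CPM. The part of these markers' cells in the values below was not tested. In bulk libraries, fewer cells of a type and less RNA per cell cannot be told apart.

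The stem-loop that takes the place of a poly(A) tail was found by its structure, as 16 bases that form 6 pairs around a 4-base loop within 150 bases after the stop codon. Of the 52 members whose annotated 3′ untranslated region had at least 16 bases, 44 held it (84.6%), against 53 of 21070 protein-coding genes (0.252%). It had 6 forms, of which the most frequent are shown because they set the classes apart, with the loop in capitals. The first was found in 26 genes of the H1, H2A, H2B and H3 classes, the second in 7 genes, all of class H4, the third in 6 genes of classes H1, H2B and H3, and the fourth in 2 genes of class H4.
H1, H2A, H2B and H3 form: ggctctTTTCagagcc
H4 form: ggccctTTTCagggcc
H1, H2B and H3 form: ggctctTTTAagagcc
second H4 form: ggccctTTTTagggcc
Outside the members, 9 further genes held such a sequence, among them H2afx, the variant H2A that is phosphorylated at DNA breaks. No stem-loop was found within 150 bases after the annotated stop codon of Hist1h2bc, Hist1h2bq, Hist1h2br and Hist2h2be, and bases further on were not searched. For these 4 genes the annotation gives 742, 1608, 1803 and 2192 bases after the stop codon, in each case with an AATAAA hexamer.

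Many members share stretches with other genes, and short reads from those stretches cannot be told apart. A median of 54.0% of the 50-base windows of a member also occurred in the transcripts of another gene, on either strand, and a median of 24.5% of its 150-base windows did. In 19 members over 80% of the 50-base windows were shared, and in 6 members at most 5% were. Among the members, 4 pairs, Hist1h2ao with Hist1h2ap, Hist1h2bq with Hist1h2br, Hist1h4m with Hist1h4n, and Hist2h2aa1 with Hist2h2aa2, had identical coding sequences. These shares include windows held by genes that overlap the member, and so are not a measure of copying alone. In all, 24 members, including all 18 H2A genes, overlapped another annotated gene. For 17 of them this was an annotated miRNA gene and for 6 an antisense transcript. Of the 50-base windows of Hist2h2ab 64.81% were shared, and a gene overlapping it on the opposite strand held 64.6%. How the authors assigned reads that fit several genes, and whether strand was used, is not given in the sources used here.

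The degree of copying is shown by coding bases 4 to 63 of 6 H2A genes (mm10), with capitals at the bases that differ from Hist1h2ap. This stretch was chosen for holding the most positions that differ among the 6 genes, so the rest of the coding sequence differs less. The stretch lies on the minus strand at chr13:21833413-21833472 for Hist1h2ap, on the plus strand at chr13:21810470-21810529 for Hist1h2ao, chr13:21716425-21716484 for Hist1h2ai and chr3:96245584-96245643 for Hist2h2aa1, on the minus strand at chr3:96240188-96240247 for Hist2h2aa2, and on the plus strand at chr11:58954741-58954800 for Hist3h2a.
Hist1h2ap: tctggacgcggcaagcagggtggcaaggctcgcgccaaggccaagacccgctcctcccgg
Hist1h2ao: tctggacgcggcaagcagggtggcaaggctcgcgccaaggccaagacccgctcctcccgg
Hist1h2ai: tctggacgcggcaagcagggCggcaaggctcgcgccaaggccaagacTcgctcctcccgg
Hist2h2aa1: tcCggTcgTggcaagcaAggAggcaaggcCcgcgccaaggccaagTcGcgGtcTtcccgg
Hist2h2aa2: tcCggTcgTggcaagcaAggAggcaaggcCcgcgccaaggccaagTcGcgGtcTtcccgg
Hist3h2a: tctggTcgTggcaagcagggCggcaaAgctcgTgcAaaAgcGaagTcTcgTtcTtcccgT
Over the first 360 coding bases, Hist1h2ai differed from Hist1h2ap at 3 positions, Hist2h2aa1 and Hist2h2aa2 at 28, and Hist3h2a at 42. Coding bases 7 to 66 of 5 H2B genes were chosen in the same way, with capitals at bases that differ from Hist1h2bq. They show the contrast between a copied pair and the least copied H2B member, Hist2h2be. They lie at chr13:21810106-21810165 (minus strand) for Hist1h2bq, chr13:21833777-21833836 (plus) for Hist1h2br, chr13:23684238-23684297 (plus) for Hist1h2bc, chr13:23543287-23543346 (minus) for Hist1h2bh and chr3:96221172-96221231 (plus) for Hist2h2be.
Hist1h2bq: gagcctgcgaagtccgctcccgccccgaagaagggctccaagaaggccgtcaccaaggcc
Hist1h2br: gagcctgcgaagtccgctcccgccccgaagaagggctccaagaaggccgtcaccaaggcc
Hist1h2bc: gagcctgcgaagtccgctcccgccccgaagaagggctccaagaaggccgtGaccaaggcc
Hist1h2bh: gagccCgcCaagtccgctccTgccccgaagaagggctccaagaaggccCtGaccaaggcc
Hist2h2be: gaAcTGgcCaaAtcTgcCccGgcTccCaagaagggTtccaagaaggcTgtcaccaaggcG
Over the first 360 coding bases, Hist1h2bc differed from Hist1h2bq at 2 positions, Hist1h2bh at 9 and Hist2h2be at 45. No 50-base window of the Hist2h2be transcript occurred in another gene.

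All members together made up a small part of every library, similar on the scale of total counts. Their summed level was 481.7, 387.5 and 408.6 total-count CPM (scaled to the library total without TMM factors) in Dlx5CE-E12.5 replicates 1, 2 and 3, and 432.8 and 406.7 total-count CPM in Fgfr3CE-E12.5 replicates 2 and 3. On this scale the groups overlapped, with 425.9 ± 49.4 total-count CPM (SD, n = 3) against 419.8 ± 18.5 total-count CPM (SD, n = 2). Scaled with TMM factors they did not overlap, at 532.3, 416.9 and 459.9 CPM against 411.2 and 387.0 CPM. The level was concentrated in a few genes. The 5 members with the highest mean level, Hist1h2ap, Hist1h1c, Hist1h2bc, Hist3h2a and Hist1h2ao, held 71.4% to 76.5% of the member counts of a library, and the highest 12 held 87.3% to 88.6%. A mean level of at least 1 CPM was reached by 32 members and one of at least 10 CPM by 7. Counts in every library were found for 51 members.

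By class, H2A histones (core histones that pair with H2B) gave 228.6, 180.3 and 202.2 total-count CPM in the Dlx5CE-E12.5 libraries and 232.4 and 227.8 in the Fgfr3CE-E12.5 libraries. H2B histones gave 122.5, 93.17 and 92.24 total-count CPM against 78.77 and 60.65, with no overlap between the groups. A single gene, Hist1h2bc, set this direction. Without it, a sum taken after seeing the data, the other 17 H2B genes gave 20.11, 18.83 and 19.38 total-count CPM against 33.98 and 34.78, higher in both Fgfr3CE-E12.5 libraries. H4 histones, which form the centre of the nucleosome with H3, gave 14.62, 15.84 and 17.25 total-count CPM against 11.5 and 7.65, again with no overlap, which held without Hist4h4 at 10.96 to 11.57 against 10.2 and 6.499. H1 and H3 histones overlapped between the groups, at 89.81 to 103.2 against 101.0 to 101.2 total-count CPM for H1 and 5.9 to 12.84 against 8.961 to 9.628 total-count CPM for H3. Scaled with TMM factors H3 still overlapped, but H1 did not, at 114.0, 99.32 and 101.1 CPM against 96.17 and 96.14 CPM. When the classes were fitted as sums in place of their members with edgeR's quasi-likelihood test, the log2 fold change (Fgfr3CE-E12.5 over Dlx5CE-E12.5 throughout) was -0.77 (SE 0.20, adjusted p = 0.0187) for H2B and -0.95 (SE 0.25, adjusted p = 0.0228) for H4. Calls throughout also required a change above 2-fold, which neither sum reached, and in this fit 9.99% of all features were called higher in Dlx5CE-E12.5 cells and 13.3% higher in Fgfr3CE-E12.5 cells. For the sums of H1, H2A and H3 the log2 fold change was -0.13, -0.04 and -0.11, with adjusted p of 0.526, 0.874 and 0.846.

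**Figure D1:**
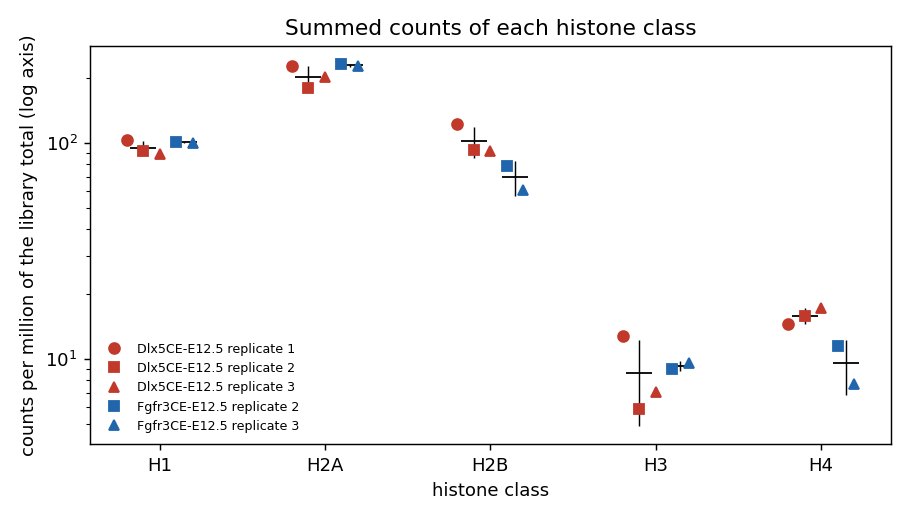
Summed total-count CPM (log axis) for each histone class in each library, with black bars for the mean and SD of each group (n = 3 and n = 2). H2B and H4 are lower in both Fgfr3CE-E12.5 libraries than in every Dlx5CE-E12.5 library, for H2B only with Hist1h2bc in the sum. On this scale H1 and H3 overlap.

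By cluster the pattern differed. Hist1 genes, which include members of every class, gave 297.6 to 381.9 total-count CPM in Dlx5CE-E12.5 cells and 351.8 and 383.2 in Fgfr3CE-E12.5 cells. Hist2 genes gave 53.55 to 55.98 against 25.2 and 26.97 total-count CPM, a ratio of the group means of 0.477. The copies Hist2h2aa1 and Hist2h2aa2 set this direction, since without them the other 8 Hist2 genes gave 11.85, 7.942 and 9.582 against 15.47 and 15.66 total-count CPM, higher in both Fgfr3CE-E12.5 libraries. Hist3 genes gave 32.04 to 40.2 against 23.16 and 26.87 total-count CPM. The only Hist4 gene, Hist4h4, gave 3.654 to 6.007 against 1.295 and 1.152 total-count CPM. The Hist2, Hist3 and Hist4 sums did not overlap between the lineages.

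Gene by gene, a call required an adjusted p under 0.05 and a change above 2-fold in edgeR's quasi-likelihood test over 17092 protein-coding genes and reporters. Of the 67 members, 10 (14.9%) were called higher in Dlx5CE-E12.5 cells, beside 10% of all genes tested, and 4 (5.97%) were called higher in Fgfr3CE-E12.5 cells, beside 13.3% of all genes tested. The remaining 53 were not called. With each library left out in turn these counts were 6 to 9 and 1 to 5, lowest without Fgfr3CE-E12.5 replicate 3 (6) and without Dlx5CE-E12.5 replicate 2 (1). A fit without 1 of the Fgfr3CE-E12.5 libraries assumes that the lone sample varies like the other group. The median log2 fold change of the members was -0.09, or -0.12 with the 4 members at 0 in a whole group set to their bound, beside 0.04 over all genes tested. Every Dlx5CE-E12.5 library lay above every Fgfr3CE-E12.5 library for 21 members (31.3%, against 27.3% of all genes tested), and the reverse held for 16 (23.9%, against 30.6%). By class, 6 of 18 H2A genes were called higher in Dlx5CE-E12.5 cells and 2 higher in Fgfr3CE-E12.5 cells, while the H2B genes divided into 2 and 2. A single H3 gene and a single H4 gene were called, both higher in Dlx5CE-E12.5 cells, and no H1 gene was called. A stricter test, of a change above 2-fold, called 4 members higher in Dlx5CE-E12.5 cells and 1 higher in Fgfr3CE-E12.5 cells. The share of all genes called by the stricter test is not given here, so these counts have no background beside them. The sign of the members' median depends on the scaling, since it was 0.09 with library size alone, which moved the median of all genes to 0.22, and 0.56 with a trend on transcript length removed.

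**Figure D2:**
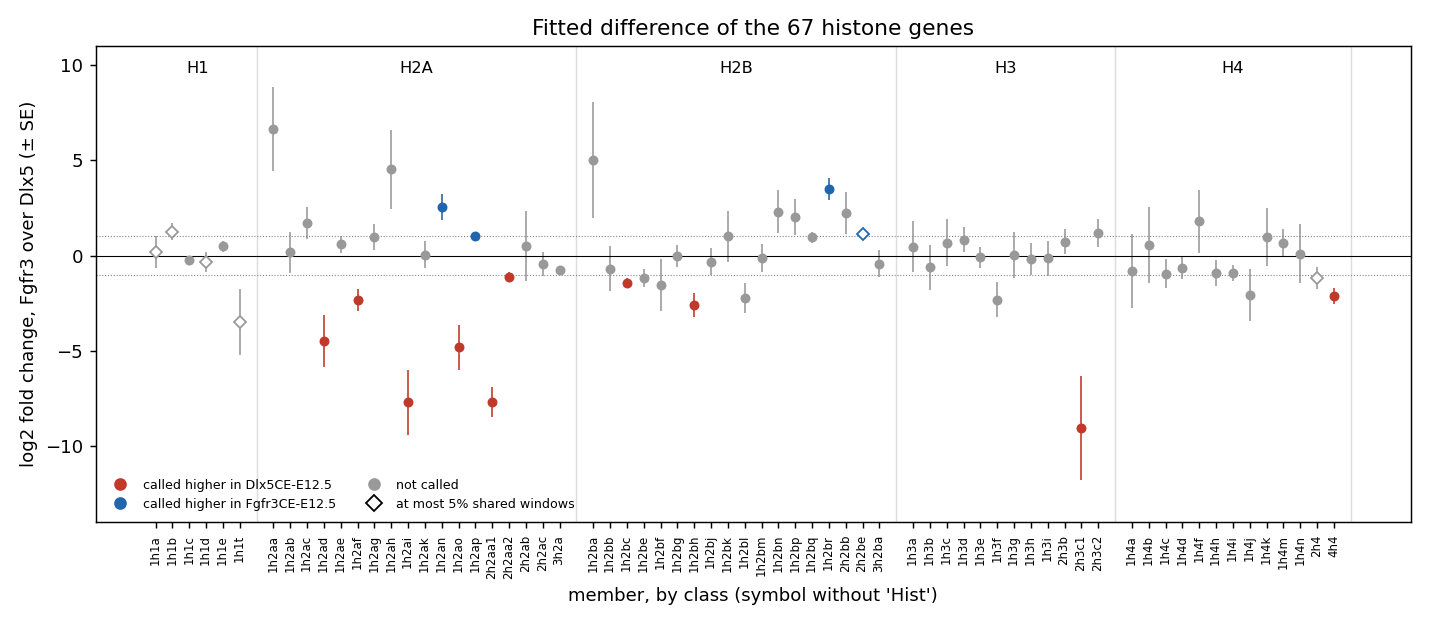
Log2 fold change of each of the 67 members with its standard error, grouped by class, from the fit over 17092 genes (dotted lines at 2-fold). The 10 members called higher in Dlx5CE-E12.5 cells and the 4 called higher in Fgfr3CE-E12.5 cells are coloured, and open diamonds mark the 6 members with at most 5% of their 50-base windows shared.

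Hist1h2ap, an H2A gene at chr13:21833026-21833507 with a single exon, had the highest level of all members, and also per length, at 243 CPM per kilobase of exon averaged over the 5 libraries. It held 97.5, 66.7 and 84.0 CPM in Dlx5CE-E12.5 libraries and 172 and 167 CPM in Fgfr3CE-E12.5 libraries, so the groups did not overlap. The log2 fold change was 1.03 (SE 0.18, adjusted p = 0.00353), but without Dlx5CE-E12.5 replicate 2 it was 0.89 and below the threshold, and it was 0.41 (adjusted p = 0.250) with the trend on GC content removed and 1.73 (adjusted p = 0.000157) with the trend on transcript length removed. Its copy Hist1h2ao held 49.6, 32.1 and 41.5 CPM against 0 and 2.90 CPM, with a log2 fold change of -4.82 (SE 1.19, adjusted p = 0.0168). This size rests on Fgfr3CE-E12.5 replicate 3: without it the Fgfr3CE-E12.5 group is at 0 and the fitted value of -13.42 depends on the prior count, and without Fgfr3CE-E12.5 replicate 2 the change was -3.83. DESeq2's Wald test gave an adjusted p of 0.0713 for Hist1h2ao. The copies were thus called in opposite directions although their coding sequences are the same.

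The counts of the pairs show how they were divided. Hist1h2ao held 33.7%, 32.5% and 33.1% of the pair's counts in the Dlx5CE-E12.5 libraries and 0% and 1.71% in the Fgfr3CE-E12.5 libraries. When the 4 pairs were summed before the fit, an alternative added after seeing the data, Hist1h2ao with Hist1h2ap gave 147, 98.7 and 126 CPM against 172 and 170 CPM. Its log2 fold change was 0.46 (SE 0.18, adjusted p = 0.0937), which did not pass.

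Hist2h2aa1 and Hist2h2aa2, H2A genes on opposite strands of chromosome 3, also received unequal shares of their counts. Hist2h2aa1 held 30.2, 29.5 and 24.7 CPM in Dlx5CE-E12.5 cells and 0 and 0.262 CPM in Fgfr3CE-E12.5 cells, with a log2 fold change of -7.70 (SE 0.78, adjusted p = 0.000312). The fitted change was -12.87 without Fgfr3CE-E12.5 replicate 3, which leaves that group at 0, and -6.73 without Fgfr3CE-E12.5 replicate 2. Hist2h2aa2 held 18.5, 19.5 and 25.8 CPM against 9.24 and 10.5 CPM, with a log2 fold change of -1.11 (SE 0.23, adjusted p = 0.00827), or -0.95 and not called without Dlx5CE-E12.5 replicate 3. Hist2h2aa2 also lost the call with library size alone (-0.92), with all features fitted (-0.91) and with the length trend removed (-0.46, adjusted p = 0.148), and with the GC trend removed it was -1.70. Hist2h2aa1 received 60.2% and 62.0% of the pair's counts in Dlx5CE-E12.5 replicates 2 and 1, 48.9% in replicate 3, and 0% and 2.43% in the Fgfr3CE-E12.5 libraries. The sum of this pair was called higher in Dlx5CE-E12.5 cells, at 48.8, 49.1 and 50.4 CPM against 9.24 and 10.8 CPM (log2 fold change -2.30, SE 0.17, adjusted p = 8.24e-05). Every 50-base and every 150-base window of both genes also occurred in another annotated gene, counting the genes that overlap them.

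Hist1h2bq and Hist1h2br, both H2B genes, are annotated with spliced transcripts. Hist1h2bq held 4.51, 3.27 and 3.69 CPM against 7.97 and 6.82 CPM, a log2 fold change of 0.95 (SE 0.31, adjusted p = 0.0505) that was not called. It was called with library size alone (1.13), with all features fitted (1.14) and with the length trend removed (1.01). It was also called with the replicate number as a block (1.08) and without Dlx5CE-E12.5 replicate 1 (1.09). Hist1h2br held 1.05, 0.293 and 0.373 CPM against 6.95 and 6.33 CPM and was called higher in Fgfr3CE-E12.5 cells (log2 fold change 3.49, SE 0.58, adjusted p = 0.00293), in this fit and in all 16 alternatives, with 4.30 without Dlx5CE-E12.5 replicate 1. Hist1h2bq took 81.1% to 91.8% of the pair's counts in Dlx5CE-E12.5 cells and 51.9% and 53.4% in Fgfr3CE-E12.5 cells. Their sum held 5.56, 3.56 and 4.06 CPM against 14.9 and 13.2 CPM, with no overlap and a log2 fold change of 1.67 (SE 0.28, adjusted p = 0.00313). For the H4 genes Hist1h4m and Hist1h4n the sum was 1.53, 1.12 and 1.08 CPM against 1.90 and 1.52 CPM (log2 fold change 0.46, SE 0.54, adjusted p = 0.550), and the groups overlapped. With the pairs summed, 8 members or sums were called higher in Dlx5CE-E12.5 cells and 3 higher in Fgfr3CE-E12.5 cells, of 17088 features tested with 10% and 13.3% called.

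**Figure D3:**
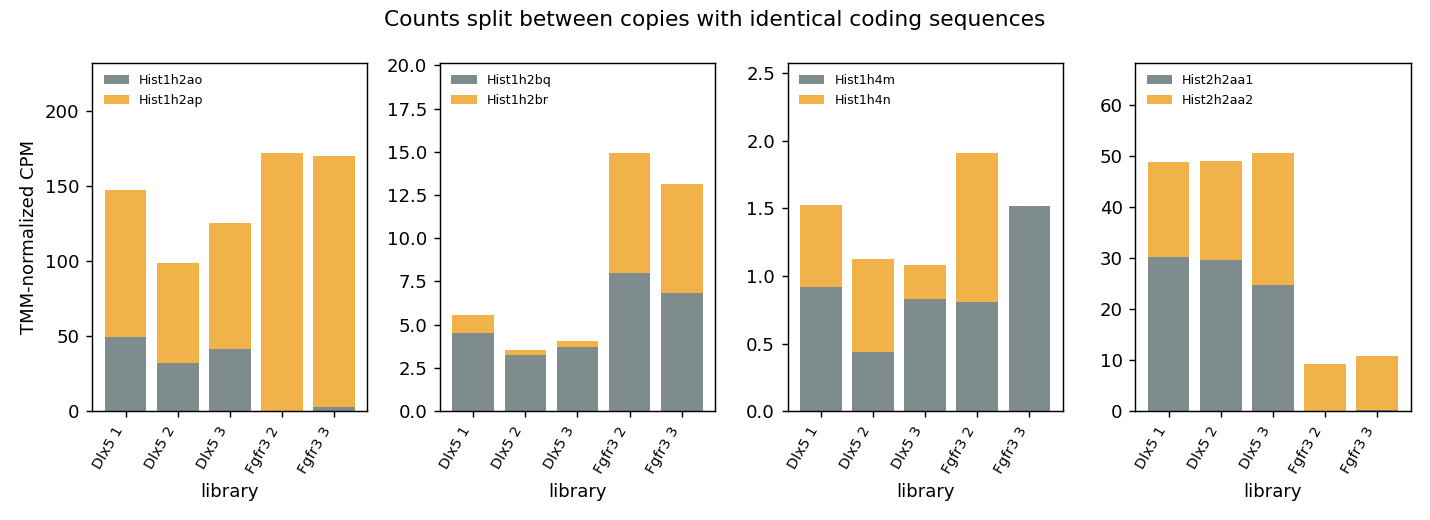
TMM-normalized CPM of the 4 pairs of histone genes with identical coding sequences in each library, stacked so that the bar height is the sum of the pair. Hist1h2ao and Hist2h2aa1 hold 32.5% to 62.0% of their pairs in Dlx5CE-E12.5 libraries and at most 2.43% in Fgfr3CE-E12.5 libraries.

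Among the members with higher levels, Hist1h1c, the most abundant linker histone gene here (chr13:23738808-23740367), held 102, 85.3 and 86.8 CPM in Dlx5CE-E12.5 cells and 75.9 and 78.0 CPM in Fgfr3CE-E12.5 cells. The libraries did not overlap, but the change of -0.25 (log2, SE 0.15, adjusted p = 0.243) did not pass the test. Hist1h1e, also a linker histone, held 5.40, 8.79 and 7.67 CPM against 10.8 and 9.70 CPM (log2 fold change 0.49, SE 0.29, adjusted p = 0.231). Hist3h2a, an H2A gene of the small cluster on chromosome 11, held 42.0, 33.8 and 37.7 CPM against 21.2 and 24 CPM, and its change of -0.75 (log2, SE 0.18, adjusted p = 0.0147) stayed under 2-fold. Hist3h2a overlaps Trim17 on the same strand, whose transcripts hold 31.5% of its 50-base windows. Hist1h2ae, an H2A gene, overlapped between the groups at 2.25 to 3.73 CPM against 3.21 and 6.24 CPM.

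Hist1h2bc is an H2B gene at chr13:23684199-23692908 with a spliced form and no stem-loop within 150 bases after its annotated stop codon. It held 113, 80 and 82.0 CPM in Dlx5CE-E12.5 cells and 42.5 and 24.6 CPM in Fgfr3CE-E12.5 cells. It was called higher in Dlx5CE-E12.5 cells (log2 fold change -1.45, SE 0.27, adjusted p = 0.00534) and stayed called with each library left out, at -1.90 to -1.11. In Fgfr3CE-E12.5 replicates 2 and 3 it held 2524 of 4439 and 1505 of 3528 H2B counts, and in Dlx5CE-E12.5 replicates 1, 2 and 3 it held 3333 of 3988, 1638 of 2053 and 1977 of 2503. The H4 gene Hist4h4 (chr6:136801553-136804415) held 4.04, 4.59 and 6.76 CPM against 1.23 and 1.10 CPM, with a log2 fold change of -2.14 (SE 0.43, adjusted p = 0.00732) that was called in all 16 alternatives. Of its 50-base windows 8.52% were shared. Hist1h2bh, a further H2B gene, held 2.31, 1.61 and 2.12 CPM against 0.320 and 0.344 CPM (log2 fold change -2.59, SE 0.63, adjusted p = 0.0163), and lost the call without Dlx5CE-E12.5 replicate 3 or either Fgfr3CE-E12.5 library, with adjusted p of 0.0626, 0.0579 and 0.0615.

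Several called members had few counts. Hist1h2ai, an H2A gene, held 26, 11 and 14 counts in Dlx5CE-E12.5 libraries and none in either Fgfr3CE-E12.5 library. Against a floor of 3 counts per library it was at least 13.4-fold higher in Dlx5CE-E12.5 cells (adjusted p = 0.0142), while 90.12% of its 50-base windows were shared. Hist1h2ad, also H2A, held 43, 51 and 18 counts against 8 and 0, and Hist1h2an held 8, 6 and 23 counts against 171 and 188. Hist1h2ad was called higher in Dlx5CE-E12.5 cells (adjusted p = 0.0390) and lost the call without Dlx5CE-E12.5 replicate 1 or 2 or Fgfr3CE-E12.5 replicate 3, with adjusted p of 0.0575, 0.135 and 0.0813, or with the length trend removed (adjusted p = 0.0656). Hist1h2an was called higher in Fgfr3CE-E12.5 cells (log2 fold change 2.55, SE 0.69, adjusted p = 0.0239) and lost the call without Dlx5CE-E12.5 replicate 2 or either Fgfr3CE-E12.5 library, with adjusted p of 0.0815, 0.0687 and 0.0909. It also lost the call with the GC trend removed (1.69, adjusted p = 0.0806), was 3.34 with the length trend removed, and was 3.39 without Dlx5CE-E12.5 replicate 3. The H3 gene Hist2h3c1 passed the test with overlapping libraries, at 123, 0 and 21 counts against 0 and 0, and its call was kept in 8 of 15 alternatives. It lost the call without Dlx5CE-E12.5 replicate 1 or 3 or either Fgfr3CE-E12.5 library, with adjusted p of up to 0.130, and a gene overlapping it on the same strand holds all of its windows. Hist1h2af, an H2A gene, was called at 4.45, 3.08 and 4.36 CPM against 1.11 and 0.458 CPM (log2 fold change -2.33, SE 0.56, adjusted p = 0.0150) and lost the call without Fgfr3CE-E12.5 replicate 3 (adjusted p = 0.0597) and with the length trend removed (-1.51, adjusted p = 0.0711). Its change was -3.10 without Fgfr3CE-E12.5 replicate 2 and with the GC trend removed.

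**Figure D4:**
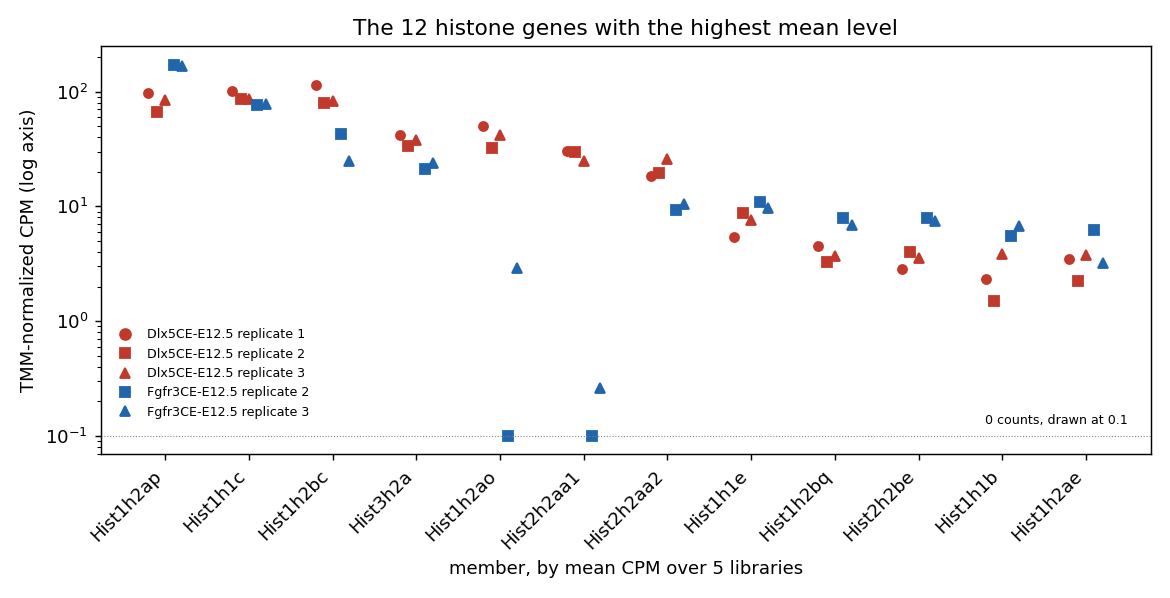
TMM-normalized CPM (log axis) of the 12 members with the highest mean level in each library, with symbols for replicates and 0 counts drawn at 0.1. Hist1h2ap lies higher in Fgfr3CE-E12.5 cells while Hist1h2ao and Hist2h2aa1 fall to 0 or near it in both Fgfr3CE-E12.5 libraries.

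The members whose sequence is their own give the values least touched by copying. Of the 6 members with at most 5% of their 50-base windows shared, 1 (16.7%, beside 13.3% of all genes tested) was called higher in Fgfr3CE-E12.5 cells and 0 (beside 10%) higher in Dlx5CE-E12.5 cells by edgeR, with 2 at an unadjusted p under 0.05. Their summed level was 10.41, 10.39 and 11.17 total-count CPM in Dlx5CE-E12.5 cells and 19.61 and 17.4 total-count CPM in Fgfr3CE-E12.5 cells, with no overlap and a ratio of the means of 1.74. Hist2h2be and Hist1h1b set this ratio: the other 4 gave 5.743, 5.264 and 4.607 against 5.465 and 2.476 total-count CPM, which overlapped. With a limit of 20% shared windows, the sums of 13 members overlapped at 101.8 to 114.5 against 104.8 and 107.6 total-count CPM. Scaled with TMM factors these sums did not overlap, at 126.6, 110.8 and 114.6 CPM against 102.2 and 99.73 CPM. The median log2 fold change of the 13 members was -0.64, with 9 below 0. The called gene was Hist2h2be, an H2B gene at chr3:96221119-96223738 with 2192 annotated bases after its stop codon. It held 2.82, 4 and 3.57 CPM against 7.87 and 7.51 CPM, and its log2 fold change was 1.15 (SE 0.31, adjusted p = 0.0250). Without Dlx5CE-E12.5 replicates 2 or 3 or Fgfr3CE-E12.5 replicates 2 or 3 the change was 1.26, 1.18, 1.12 and 1.19, with adjusted p of 0.0579, 0.0714, 0.0830 and 0.0771.

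Hist1h1b, a linker histone gene with no shared window, held 2.34, 1.51 and 3.82 CPM against 5.56 and 6.69 CPM (log2 fold change 1.26, SE 0.44, adjusted p = 0.0644). The groups did not overlap, and it was called in some alternatives, including DESeq2's Wald test (adjusted p = 0.0307) and the fit without Dlx5CE-E12.5 replicate 3 (1.66, adjusted p = 0.0397). Hist1h1d, a linker histone gene with 4931 annotated bases after the stop codon, overlapped at 1.82 to 3.49 CPM against 1.34 and 2.78 CPM. Hist2h4, an H4 gene, held 2.10, 1.90 and 2.36 CPM against 1.30 and 0.573 CPM (log2 fold change -1.18, SE 0.59, adjusted p = 0.171). Among these 4 genes the estimates lay in both directions.

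The filter used by the study, at least 10 CPM in at least 2 libraries, kept 8 of the 67 members: Hist1h1c, Hist1h1e, Hist1h2ao, Hist1h2ap, Hist1h2bc, Hist2h2aa1, Hist2h2aa2 and Hist3h2a. Of these, 4 were called higher in Dlx5CE-E12.5 cells and 1 higher in Fgfr3CE-E12.5 cells, of 10088 genes tested with 13.1% and 16.4% called. Since these members passed a filter on level, their share is no measure of the members as a whole. The 5 calls included both members of the pairs Hist1h2ao with Hist1h2ap and Hist2h2aa1 with Hist2h2aa2. No H3 or H4 gene passed the filter.

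The 22 members with at least 300 annotated bases after the stop codon had a median of 2.30 CPM, against 0.703 CPM for the other 45, and Spearman's rho between length and mean CPM was 0.46 over the 67 members, which share libraries. Per kilobase of exon the order turned, with medians of 1.12 and 1.57 CPM per kilobase. Of the 22, 14 held an AATAAA hexamer and 18 the stem-loop, and of the 45, 5 held the hexamer and 26 the stem-loop. Members with the longer annotated ends had a median log2 fold change of -0.69 and the others one of 0.09. Across the 67 members the percent of shared 50-base windows had a Spearman's rho of 0.07 with the log2 fold change and 0.14 with its size.

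Members often lie head to head, and 12 pairs, each of an H2A with an H2B gene, had starts within 400 bases of each other on opposite strands. In 7 of the 12 pairs the log2 fold changes had the same sign, and in only 1, Hist1h2ap with Hist1h2br, were both genes called, both higher in Fgfr3CE-E12.5 cells. Summed with its copy Hist1h2ao, Hist1h2ap was not called (log2 fold change 0.46, adjusted p = 0.0937 by edgeR). The copies of this pair, Hist1h2bq and Hist1h2ao, also lie head to head and had log2 fold changes of 0.95 and -4.82. Hist1h2bc, called higher in Dlx5CE-E12.5 cells, faces Hist1h2ac, which held 0.170, 0.684 and 0.456 CPM against 1.87 and 0.949 CPM (log2 fold change 1.70, SE 0.82, adjusted p = 0.156). Hist2h2be faces Hist2h2ac, at 1.19, 0.928 and 1.29 CPM against 0.792 and 0.867 CPM (log2 fold change -0.45, SE 0.64, adjusted p = 0.627). The 235 bases between Hist1h2ap and Hist1h2br (GRCm38.p6, chr13:21833508-21833742, plus strand, from the RefSeq promoter table) are shown since both genes were called, with CCAAT boxes on either strand in capitals.
Hist1h2ap to Hist1h2br: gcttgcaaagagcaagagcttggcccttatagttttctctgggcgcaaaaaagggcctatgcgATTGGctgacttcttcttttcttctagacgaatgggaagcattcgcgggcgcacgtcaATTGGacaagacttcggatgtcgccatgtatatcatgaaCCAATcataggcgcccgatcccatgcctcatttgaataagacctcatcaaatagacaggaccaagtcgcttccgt
In the 250 bases before the start, CCAAT on either strand was found in 51 of the 62 members matched to a promoter (82.3%), against 33.8% of all 32851 promoters. It was found in every H1, H2A and H2B promoter, in 8 of 10 H3 promoters and in only 3 of 12 H4 promoters (25.0%). The 250 bases of head-to-head genes overlap, so a match there can count for both genes. ATTTGCAT, the octamer bound by POU factors, was found in 7 of 18 H2A and 6 of 16 H2B promoters and in none of the H1, H3 and H4 promoters, against 1.60% of all promoters. TATAAA was found in 29 of the 62 (46.8%), against 12.4% of all. A match is a description of the letters and not of binding.

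Replication-independent histone variants are deposited also outside DNA replication, and most of their genes give polyadenylated mRNA. Of 11 variant genes 4 were called higher in Fgfr3CE-E12.5 cells (36.4%, beside 13.3% of all genes tested) and 1 (9.09%, beside 10%) higher in Dlx5CE-E12.5 cells, with a median log2 fold change of 0.15 beside 0.04 over all genes. H2afy, which encodes macroH2A1, held 38.9, 31.3 and 29.9 CPM against 230 and 268 CPM (log2 fold change 2.90, SE 0.17, adjusted p = 2.94e-05). The linker variant H1fx held 0.170, 0.195 and 0.207 CPM against 17.8 and 27.1 CPM (6.86, SE 0.36, adjusted p = 2.64e-05), which became 5.67 with the GC trend removed. Cenpa, the centromeric H3 variant, held 45.5, 24.1 and 27.0 CPM against 72.6 and 112 CPM (1.52, SE 0.30, adjusted p = 0.00658). H2afx held 153, 94.1 and 115 CPM against 219 and 316 CPM (1.15, SE 0.24, adjusted p = 0.00798), which became 0.63 (adjusted p = 0.0779) with the GC trend removed. H2afx also lost the call without Dlx5CE-E12.5 replicate 2 (1.00, not above 2-fold) or Fgfr3CE-E12.5 replicate 3 (0.86).

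The 1 variant called higher in Dlx5CE-E12.5 cells was H2afj, with 97.8 to 99.0 CPM against 38.9 and 57.6 CPM (log2 fold change -1.03, SE 0.19, adjusted p = 0.00492), or -0.78 and not called without Fgfr3CE-E12.5 replicate 2, and also not called with library size alone, all features or the length trend removed (-0.96). The H3.3 genes differed by less than 2-fold in opposite directions, H3f3a at 419 to 445 against 657 and 670 CPM (0.62, adjusted p = 0.0113) and H3f3b at 2270 to 2470 against 1520 and 1590 CPM (-0.62, adjusted p = 0.0174). H2afz, the H2A.Z gene, overlapped at 435 to 508 against 435 and 522 CPM. H1f0, the linker variant of resting cells, H2afv and H2afy2 had log2 fold changes of 0.15, -0.40 and -0.16 with adjusted p of 0.735, 0.10 and 0.556.

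Of 23 genes for histone gene transcription and 3′ end processing, 21 were matched by symbol, and of those 4 (19%, beside 13.3% of all genes tested) were called higher in Fgfr3CE-E12.5 cells and 0 (beside 10%) higher in Dlx5CE-E12.5 cells by edgeR, with 12 at an unadjusted p under 0.05 and 0 called higher in Dlx5CE-E12.5 cells by DESeq2. The 4 were Upf1, Lsm11 and the cyclin E genes Ccne2 (log2 fold change 1.36) and Ccne1 (1.00). Upf1, a helicase with a part in histone mRNA decay at the end of S phase, held 10.6 to 11.5 against 88.7 and 76.7 CPM (2.91, SE 0.16). Lsm11 of the U7 particle held 1.46 to 3.76 against 8.09 and 9.11 CPM (1.65, SE 0.43). Lsm11 lost the call without Fgfr3CE-E12.5 replicates 2 or 3 (adjusted p = 0.0514 and 0.0857), and Ccne1, at the threshold of 2-fold, with either trend removed and without Dlx5CE-E12.5 replicates 1 or 2 (0.98 in each) or Fgfr3CE-E12.5 replicate 3 (0.88). Ccne1 also lost the call with DESeq2's size factors or its Wald test (1.0 in each) and with a filter of 1 CPM (0.99). The same held with the replicate number as a block (0.98) and under the test of a change above 2-fold. Npat held 35.3, 31.0 and 34.7 CPM against 27.2 and 22.4 CPM (log2 fold change -0.44, SE 0.18, adjusted p = 0.0938). Slbp, at a log2 fold change of 0.22, was not called either.

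Of 25 histone chaperone genes 7 (28%, beside 13.3% of all genes tested) were called higher in Fgfr3CE-E12.5 cells and 1, Ubn2 of the H3.3 chaperone complex, higher in Dlx5CE-E12.5 cells (log2 fold change -1.0, or -0.06 with the length trend removed), with a list median of 0.52. Without Dlx5CE-E12.5 replicate 2 or Fgfr3CE-E12.5 replicate 3, 0 chaperone genes were called higher in Dlx5CE-E12.5 cells by edgeR, of 25 with 16 at an unadjusted p under 0.05 over all libraries, and DESeq2 called 1. The former included Chaf1a, the large subunit of the chromatin assembly factor that follows the replication fork, at 10.1 to 12.9 against 48.7 and 60.7 CPM (2.28, SE 0.19, adjusted p = 0.000138). The others were Mms22l (2.23) and Tonsl (1.18), which act together at stalled forks, the H3-H4 chaperone gene Asf1b (1.68), Cdan1 (1.92), whose product binds ASF1, the helicase subunit gene Mcm2 (1.49) and Chaf1b (1.17), a partner of Chaf1a. Tonsl lost the call with the GC trend removed (0.92) and without Dlx5CE-E12.5 replicate 2 (0.97) or Fgfr3CE-E12.5 replicate 3 (1.03, adjusted p = 0.0841). Of the 43 S-phase genes of Seurat 22 (51.2%) were called higher in Fgfr3CE-E12.5 cells and 0 higher in Dlx5CE-E12.5 cells, with a median log2 fold change of 1.09, 32 at an unadjusted p under 0.05 and 0 called higher in Dlx5CE-E12.5 cells by DESeq2. The leukocyte and myeloid precursor markers given above were higher in the same lineage, and their part in these lists was not tested.

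Erythroid markers, of cells that divide while they mature, were measured at sums of 28500, 13900 and 18500 CPM in Dlx5CE-E12.5 replicates 1, 2 and 3 and 8740 and 13400 CPM in Fgfr3CE-E12.5 replicates 2 and 3, over the 6 of 7 markers matched. Replicate 1 of Dlx5CE-E12.5 was also highest of its group in the sums of H1, H2A, H2B and H3 histones, and lowest in that of H4. In Fgfr3CE-E12.5 cells, replicate 3 had the higher erythroid sum and the lower sum of all members, at 406.7 against 432.8 total-count CPM. The link between these values was not tested. Chondrocyte markers summed to 125 to 136 CPM in Dlx5CE-E12.5 cells and to 3000 and 425 CPM in Fgfr3CE-E12.5 replicates 2 and 3, of which 4 of 5 were called higher in Fgfr3CE-E12.5 cells. Endothelial markers were at 18.0 to 34.6 CPM in sum and 0 of 5 were called by edgeR, with 2 at an unadjusted p under 0.05. Of all genes tested 23.3% were called in either direction. Of 8 marrow stromal markers, 5 (62.5%, beside 10% of all genes tested) were called higher in Dlx5CE-E12.5 cells. Only 1, Foxc1 (12.5%, beside 13.3%), was called higher in Fgfr3CE-E12.5 cells.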

How the data were processed

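RNA-seq libraries of 5 sorted cell pools were grouped by the lineage in the sample labels. The deposited file holds raw counts per Ensembl gene with reporter sequences added, which the authors made from reads aligned to mm10. The submitters' processing notes name TopHat2 2.0.13, Bowtie2 2.2.1, FastQC, Cufflinks, Cuffdiff, HTSeq and DESeq2 with no role for each, and the counting settings are not given in the sources used here. The depth-normalized and rlog files were derived from the counts and not used here.

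Genes were annotated with GENCODE M21 (GRCm38, the build mm10 names). Protein-coding genes and reporters were fitted in edgeR 4.0.16 (R 4.3.3) with TMM factors and the quasi-likelihood test, a term for lineage only, and Benjamini-Hochberg adjustment. The study's filter of 10 CPM in at least 2 libraries was fitted beside it. Alternatives were DESeq2 1.42.0, edgeR's exact test, other scalings, filters, fold thresholds and gene sets, removal of GC or length trends, a replicate block and leaving out each library, with sums over identical copies, sums without single genes or with a wider limit on shared windows, and the treatment of overlapping genes added after seeing the data, and the fit was tested on simulated data. Each standard error is the absolute log2 estimate divided by the root of F. Shared sequence was counted in windows of 50 and 150 bases over GENCODE transcripts. Reads carried no molecular identifiers, so the floor of 3 counts covers counting error only. Between any 2 libraries the chi-square per degree of freedom was at least 16.8, so each counted as 1 sample. The members, gene lists and rules were chosen with earlier results of these data known. Genes were named by rule: the 12 members with the highest mean CPM, up to 5 called members per direction with the largest change and no overlap, members with at most 5% shared windows and at least 1 CPM, variant histones of at least 1 CPM, 6 called genes at most of the processing and chaperone lists each with Npat and Slbp, copies with identical coding sequences, members at 0 in every library (there were none), and cell type markers. Hist4h4, Hist1h2af, Hist2h3c1, Hist1h2ac, Hist2h2ac, Chaf1b and Ubn2 fell outside the rule and were named after their values were seen.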

Additional observations from a re-analysis of the deposited data

How the results depend on the processing

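The counts of members called higher in Dlx5CE-E12.5 cells (10) and in Fgfr3CE-E12.5 cells (4) were 4 and 1 under a test of a change above 2-fold. The latter was 2 with the GC trend and 7 with the transcript length trend removed. The share of all genes called under each of these settings is not given here. Leaving out 1 library gave 6 to 9 and 1 to 5. The members' median log2 fold change (-0.09) was 0.09 with library size alone, 0.10 with all features, -0.41 with a filter of 1 CPM, -0.36 without the GC trend and 0.56 without the length trend. Under the study's filter (4 and 1 called, median -0.92), the 1 CPM filter gave 9, 4 and -0.41, the test above 2-fold gave 2 and 0, and removal of the GC trend gave 0 higher in Fgfr3CE-E12.5 cells and a median of -1.09. That median was -0.74 with library size alone and -0.59 without the length trend. Without 1 library, 0 to 1 members were higher in Fgfr3CE-E12.5 cells under the study's filter. The cause of these shifts was not tested, except that the filters change which genes are tested.

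Variants higher in Dlx5CE-E12.5 cells (1) were 0 with library size alone, all features, the test above 2-fold or the length trend removed, 2 by adjusted p alone, and 0 to 1 without 1 library; those higher in Fgfr3CE-E12.5 cells (4) were 2 under the test above 2-fold. Processing genes higher in Fgfr3CE-E12.5 cells (4) were 1 under that test, 7 by adjusted p alone and 2 to 4 without 1 library, and those higher in Dlx5CE-E12.5 cells (0) were 0 to 1. Chaperones higher in Dlx5CE-E12.5 cells (1) were 0 with library size alone, all features, the test above 2-fold or either trend removed, 2 by adjusted p alone, and 0 to 2 without 1 library, and those higher in Fgfr3CE-E12.5 cells (7) were 3 under the test above 2-fold and 13 by adjusted p alone. S-phase genes higher in Fgfr3CE-E12.5 cells (22) were 8 under the test above 2-fold, and those higher in Dlx5CE-E12.5 cells (0) were 0 to 1 without 1 library. Members with little shared sequence higher in Dlx5CE-E12.5 cells (0) were 2 with a limit of 20% or with 150-base windows. They were 1 when the limit of 5% was set on the windows shared with any single gene that does not overlap the member. That choice was made after seeing the data. Class sums gave 0 higher in Fgfr3CE-E12.5 cells (1). The log2 ratio of the members' share of the library (-0.02) was -0.23 on TMM library sizes and 0.80 for the members with little shared sequence. In sums chosen after seeing the data, the log2 ratio changed sign to 0.82 for H2B without Hist1h2bc, to 0.67 for Hist2 without Hist2h2aa1 and Hist2h2aa2, and to -0.39 for the members with little shared sequence without Hist2h2be and Hist1h1b, while a limit of 20% gave 0.00, and H4 without Hist4h4 kept its sign at -0.43.

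Among single genes, 617 of 701 refitted values over 44 genes kept direction and call, 60 lost the call, 12 gained it and 12 changed sign. The sign changed for H2afy2 with library size alone (0.02) or all features (0.03), for Hist1h4n with the GC trend removed (-0.04) and without 1 library (-7.13 to 1.09), for H1f0 (-0.08 to 0.49), H2afz (-0.12 to 0.15) and Hist1h1d (-0.97 to 0.08) without 1 library.

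The replicate numbers 2 and 3 occur in both lineages but name different pools, and deviations of same-numbered libraries correlated at 0.13 and -0.05, so the samples share only a number. With the number as a replicate block, 10 and 6 members were called, with a median of 0.04, chaperones higher in Dlx5CE-E12.5 cells numbered 2, and H1f0 (-0.06) and Hist1h4n (-1.20) changed sign. Low counts limit 35 members with a mean under 1 CPM.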

Other observations

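Histone genes annotated as pseudogenes were not members, and 3 of them had counts. Hist1h2aj, an unprocessed pseudogene of the H2A class, held 0, 2 and 4 counts in the Dlx5CE-E12.5 libraries and 448 and 615 counts in the Fgfr3CE-E12.5 libraries. Hist1h2al held 294, 108 and 118 counts against 430 and 487, and Hist3h2bb-ps held at most 8 counts in any library. Hist1h2aj thus had its counts in the Fgfr3CE-E12.5 libraries, while Hist2h2aa1 and Hist1h2ao had theirs mostly in the Dlx5CE-E12.5 libraries. Whether these rows hold reads of their own or of a copy was not tested, and read length and lineage cannot be told apart.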
